A study of Mus musculus with 8 samples.

Results

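The transcripts of the MYC-MAX-MXD network were followed in mouse retinal organoids treated with dTAG-13 to degrade METTL3, the enzyme that places most N6-methyladenosine (m6A) in messenger RNA. The 10 members were chosen by gene name: Myc, Mycn and Mycl, the MYC paralogs; Max, their partner; Mxd1, Mxd3, Mxd4, Mnt and Mga, which bind MAX in place of MYC; and Mlx, which serves a parallel branch. All 10 had a locus of their own among the 35541 loci of the 8 h and 24 h tables, and 9 had one among the 35494 loci of the 1 h table, in which Mnt was merged with a neighbour. No member passed the rule for a changed transcript at any time. The differences described here are therefore values with their errors.

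MYC proteins bind DNA only as dimers with MAX, through a basic helix-loop-helix leucine zipper, and the dimer activates genes for growth, ribosome production and metabolism from E-boxes. MXD proteins, MNT and MGA compete for MAX and recruit repressors to the same sites, while MLX pairs with the glucose-sensing proteins MLXIP and MLXIPL as well as with some MXD proteins and MNT. Myc, Mycn and Mycl transcripts are short-lived and low in introns, and N-MYC is known for driving the proliferation of retinal progenitors. Myc is also among the transcripts long known to carry m6A.

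The promoters of the network genes were examined for the canonical E-box, CACGTG, since this is the letter string that MYC-MAX dimers and their antagonists share. RefSeq windows of GRCm38.p6, from 250 bases before to 50 bases after a start site, were available for 9 members, and 4 of the 9 held the motif, against 8.09% of 27025 genes with a window and 7.15% of 32851 windows. The motif reads the same on both strands. The matches are shown in the sense of the gene within windows of 30 bases, with the E-box in capitals, at chr12:76962234-76962263 (minus strand) for Max, chr5:34187912-34187941 (minus) for Mxd4, chr11:74830789-74830818 (plus) for Mnt and chr11:101087238-101087267 (plus) for Mlx.
Max: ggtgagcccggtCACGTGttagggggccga
Mxd4: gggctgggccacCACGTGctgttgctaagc
Mnt: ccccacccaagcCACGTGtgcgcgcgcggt
Mlx: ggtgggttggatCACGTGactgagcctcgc
The Max motif spanned the RefSeq start site, from base -3 to base 3. Those of Mlx, Mnt and Mxd4 began 40, 123 and 219 bases before theirs. By the GENCODE position given for Max below, which begins at base 76962201 on the minus strand, the whole motif lies upstream of the gene. All 4 belong to a partner or an antagonist, but so do most of the windows searched, since only Mycn and Mycl of the MYC paralogs had one. The windows of the members were 55% to 76.7% G or C, and no background matched for base content was used. Of the target lists described below, the motif was held by 11 of 54 MYC-activated, 1 of 10 MYC-repressed and 1 of 4 MLX target genes with a window. No window was available for Myc, so its promoter was not searched. The windows of Mycn, Mycl, Mxd1, Mxd3 and Mga did not hold these letters.

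All organoids came from 1 mouse line with a GFP reporter at Rx (the retinal transcription factor gene Rax) and an FKBP12F36V-HA degron at the C terminus of METTL3, on both Mettl3 alleles. The controls carry the degron too. Polyadenylated RNA was sequenced at day 6 of differentiation from 4 groups of 2 samples each: organoids without treatment (0 h), and organoids given dTAG-13, which directs the tagged protein to degradation, at 125 nM for 1, 8 or 24 h. No cells that lack the degron and received dTAG-13 were analysed here, so effects of the compound and of METTL3 loss cannot be told apart. The labels do not say whether the 0 h samples received solvent, nor whether the 2 samples came from separate cultures. They do say that duplicates went through 2 separate rounds of library preparation, and they give all 8 samples a single batch entry.

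In the deposited tables both samples of a condition are merged into a single value for each gene, with a lower and an upper bound. The spread between samples cannot be seen, and no p-value is given. Levels are in FPKM, sequenced fragments scaled to transcript length and to library size, followed by the deposited interval. A locus was tested when it reached 1 FPKM in either condition, and called when its FPKM differed by 1.5-fold or more with deposited intervals that stood apart. Estimated counts summed to between 31361518 and 32562075 per condition. Mettl3 transcript was near 19.2 FPKM (9.92 to 28.5) at 0 h and 19.1, 19.4 and 17.0 FPKM at 1, 8 and 24 h, with overlapping intervals, and since the degron acts on the protein these values do not check the depletion. Of 12 retinal progenitor markers, 11 had their own locus and all 11 were at 1 FPKM or more at 0 h, with Lhx2 highest at 142 FPKM. Pluripotency markers were present as well, 9 of 9, from Klf4 at 2.26 to Dppa5a at 199.7 FPKM. Of 6 neuron markers with a locus, Stmn2 alone was above 1 FPKM, at 4.67 FPKM, with Atoh7 at 0.102 FPKM and Pou4f2 listed at 0, and the highest of 8 mesoderm and endoderm markers was Gata4 at 1.51 FPKM. Of 4 telencephalon markers with a locus, 2 were above 1 FPKM, Emx2 at 20.7 and Emx1 at 1.05 FPKM. The summed FPKM of the retinal list went from 739 at 0 h to 1018.5 at 24 h. Of its 11 tested genes, Lhx2, Mab21l1 and Rax were called higher. The sum of the pluripotency list went from 322 to 214, with Tbx3 called higher and Dppa5a and Tdgf1 called lower of 9 tested. Of all tested loci at 24 h, 3.83% were called higher and 1.65% lower. The sum of the mesoderm and endoderm list went from 4.63 to 6.73 FPKM. These are bulk samples, in which fewer cells of a type and less RNA per cell cannot be told apart, and the part of these marker shifts in the values below was not tested.

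At 1 h none of the 9 members was called, against 0.402% of 13690 tested loci (0.117% higher and 0.285% lower). At 8 h none of 10 was called, against 4.43% of 13825 loci (3.49% higher, 0.94% lower), and at 24 h none of 10, against 5.48% of 13910 (3.83% higher, 1.65% lower). With so few members, a count of 0 is near these shares at each time. All members passed the filter on low values at each time they were measured, with between 108.6 and 14164 estimated counts. The members had median log2 ratios of 0.00, 0.22 and 0.18 at 1, 8 and 24 h, beside 0.01, 0.01 and 0.02 over all tested loci. Members with a ratio above 0 numbered 5 of 9, 9 of 10 and 8 of 10, beside 51.6%, 51.3% and 52.1% of all tested loci. The 3 comparisons share the 0 h samples, so the signs are not independent between times. The plot of levels sets each treated value beside the 0 h value of its own table.

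**Figure D1:**
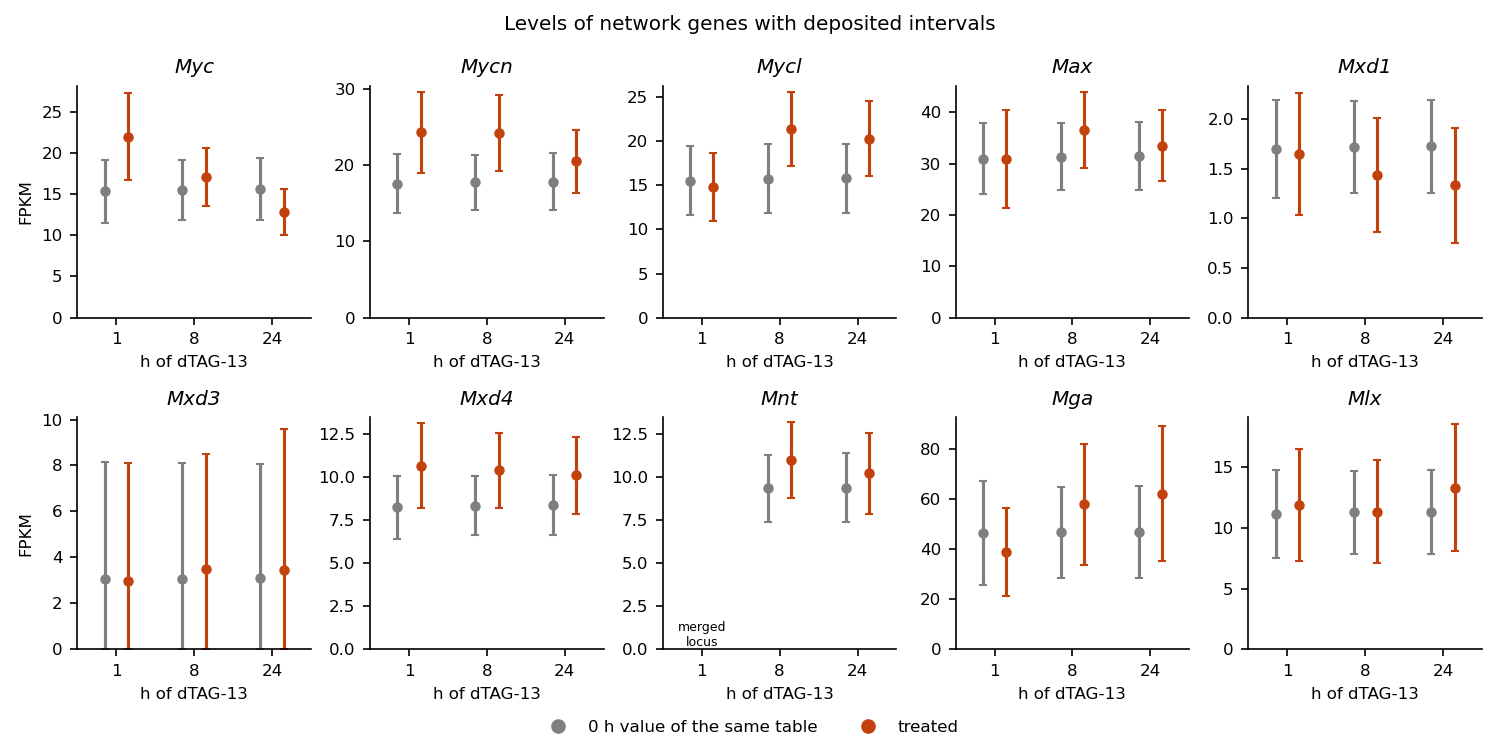
FPKM of the 10 network genes at 1, 8 and 24 h of dTAG-13 (orange) beside the 0 h value of the same table (grey), each combined over 2 samples; bars are the deposited intervals and each panel has its own axis from 0. The 2 intervals overlap in every panel and at every time; Mnt has no value of its own at 1 h.

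Myc, the founding member, maps to chr15:61985391-61990374 (GRCm38, plus strand). Its level was 15.3 FPKM (11.5 to 19.2) at 0 h and 22.0 FPKM (16.7 to 27.3) at 1 h. At 8 h it was 17.1 FPKM (13.6 to 20.6) beside 15.5 (11.9 to 19.2) at 0 h, and at 24 h it was 12.9 FPKM (10.1 to 15.6) beside 15.6 (11.8 to 19.4). Myc was thus highest at 1 h and lowest at 24 h, and its interval overlapped that of 0 h each time. The log2 ratios of FPKM were 0.52, 0.14 and -0.28 at 1, 8 and 24 h. The 1 h ratio, 1.43-fold, was the highest of any member at any time, and 6.58% of tested loci were at least as far from 0 at 1 h. Estimated counts gave a log2 ratio of 0.55 ± 0.22 at 1 h and of -0.29 ± 0.22 at 24 h, where the error is a standard error from the deposited variances.

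Mycn encodes N-MYC, the paralog prominent in neural progenitors, and maps to chr12:12936093-12941914 (minus strand). Its level was 17.6 FPKM (13.7 to 21.4) at 0 h and 24.3 (19.0 to 29.6) at 1 h. It stood at 24.3 FPKM (19.3 to 29.3) at 8 h against 17.8 (14.2 to 21.4), and at 20.5 FPKM (16.4 to 24.7) at 24 h against 17.8 (14.1 to 21.5). Mycn was higher than at 0 h at every time, by nearly the same amount at 1 and 8 h and by less at 24 h, with overlapping intervals throughout. The log2 ratios were 0.47, 0.45 and 0.20.

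Mycl encodes L-MYC, the paralog with the weakest transforming activity, and maps to chr4:122995652-123002485 (plus strand). Its level was 15.5 FPKM (11.6 to 19.5) at 0 h and 14.8 (10.9 to 18.7) at 1 h. It was 21.4 FPKM (17.2 to 25.5) at 8 h against 15.7 (11.8 to 19.6), and 20.3 FPKM (16.03 to 24.6) at 24 h against 15.8 (11.8 to 19.7). Unlike the other paralogs, Mycl was not above 0 h at 1 h, and its higher values came at 8 and 24 h, with log2 ratios of -0.07, 0.44 and 0.36. The deposited intervals overlapped at all 3 times.

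A looser reading of the error used the estimated counts and asked which log2 ratios lay more than 2 standard errors from 0. At 1 h this held for 2 of 9 members, Myc and Mycn, against 1.32% of tested loci. At 8 h it held for 2 of 10, Mycn (0.43 ± 0.20) and Mycl (0.50 ± 0.20), against 15% of loci, and at 24 h for none of 10, against 17.5%. The standard errors come from the authors' model and not from visible replicates. In the plot of count ratios Myc and Mycn lie farthest from 0 at 1 h, and Mycl and Mycn at 8 h. This rule was added with the values in view.

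**Figure D2:**
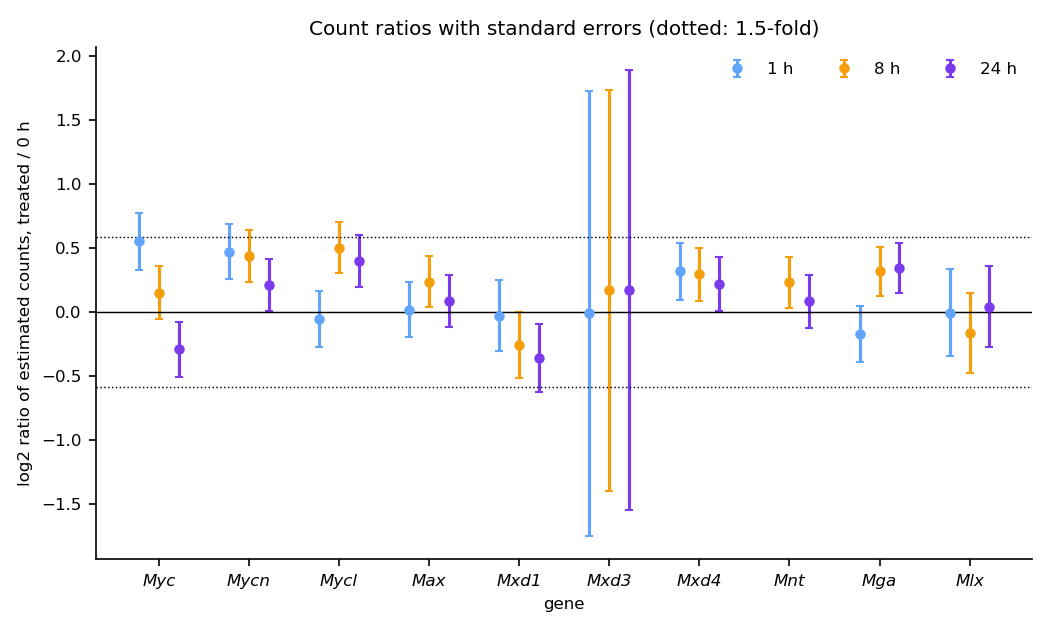
Log2 ratio of estimated counts, treated over 0 h, for the 10 network genes at 1 h (blue), 8 h (amber) and 24 h (purple); bars are 1 standard error from the deposited variances and dotted lines mark 1.5-fold. All points lie between the dotted lines, Myc runs from 0.55 at 1 h to -0.29 at 24 h, and the errors of Mxd3 exceed 1.5 on this scale.

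The paralogs were close to each other at 0 h, and their shares are given as values without an error or a test. Of the summed FPKM of Myc, Mycn and Mycl in the 1 h table, Myc made up 31.7%, Mycn 36.2% and Mycl 32.1% at 0 h. In the same order the shares after 1 h were 36.0%, 39.8% and 24.2%. Those after 8 h were 27.2%, 38.7% and 34.1%, and those after 24 h were 23.9%, 38.2% and 37.8%. Mycn had the highest share in each condition, and Myc was above Mycl at 1 h and below it at 8 and 24 h. The sum itself was 48.4 ± 3.03 FPKM at 0 h and 61.1 ± 3.83 at 1 h (SD from the deposited variances, taken as independent between genes). It was 62.7 ± 3.60 at 8 h against 49.1 ± 2.86, and 53.7 ± 3.19 at 24 h against 49.2 ± 2.91. At 1, 8 and 24 h the log2 ratios of the sum were 0.33 ± 0.13, 0.35 ± 0.12 and 0.12 ± 0.12 (SE). The summed level thus lay farther from that of 0 h, relative to its error, at 1 and 8 h than at 24 h.

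Treated values were also set against each other, although the tables were normalized separately. The 0 h value of Myc was 1.016 times as high in the 24 h table as in the 1 h table, and the median of this factor over the genes compared was 1.016 too. Myc at 24 h, 12.9 FPKM (10.1 to 15.6), was 1.73-fold below Myc at 1 h, 22.0 FPKM (16.7 to 27.3), after each was divided by its own 0 h value with 0.1 added to all. The 2 intervals did not overlap. By the rule of a 1.5-fold difference of ratios and treated intervals apart, Myc was the 1 member of 9 past it between 1 and 24 h, against 5.99% of 11039 genes. Between 1 and 8 h no member of 9 passed, against 5.12% of 11043 genes, and between 8 and 24 h none of 10, against 0.498% of 11249. Mga differed by 1.58-fold in the other direction, with overlapping intervals. Its locus in the 1 h table also covers other genes and that of the 24 h table does not, so these ratios are of unlike loci. The difference of Myc was chosen after the values were seen and has no test. Of all genes compared, 1.36% passed the rule with the lower value at 24 h, as Myc did, and 4.63% with the higher.

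Max encodes the obligate partner, without which MYC proteins do not bind DNA, and maps to chr12:76937269-76962201 (minus strand). Its level was 31.0 FPKM (24.1 to 37.9) at 0 h and 31.0 (21.4 to 40.5) at 1 h. It was 36.5 FPKM (29.1 to 44.0) at 8 h against 31.4 (24.8 to 37.9), and 33.5 FPKM (26.6 to 40.4) at 24 h against 31.5 (24.8 to 38.1). Max was level at 1 h and slightly above 0 h later, with log2 ratios of 0.00, 0.22 and 0.09. Its interval at 0 h lay above that of each MYC paralog.

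Among the antagonists, Mxd4 was the steadiest above 0 h. MXD4 is one of the MXD repressors that accompany the exit from proliferation, and its gene maps to chr5:34173883-34187720 (minus strand). Its level was 8.23 FPKM (6.40 to 10.1) at 0 h and 10.7 (8.18 to 13.1) at 1 h. It was 10.4 FPKM (8.21 to 12.6) at 8 h against 8.33 (6.63 to 10.04), and 10.1 FPKM (7.86 to 12.3) at 24 h against 8.36 (6.62 to 10.1). The 3 treated values nearly coincided, and all 3 intervals overlapped those of 0 h. The log2 ratios were 0.37, 0.31 and 0.27.

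Mxd1, the founding MXD gene and a marker of terminal differentiation in many lineages, had the lowest level of the network. It maps to chr6:86647042-86669161 (minus strand). Its level was 1.70 FPKM (1.21 to 2.195) at 0 h and 1.65 (1.04 to 2.26) at 1 h. It was 1.44 FPKM (0.859 to 2.01) at 8 h against 1.72 (1.26 to 2.19), and 1.33 FPKM (0.757 to 1.91) at 24 h against 1.73 (1.26 to 2.1999). Mxd1 was the only member below 0 h at both later times, with log2 ratios of -0.04, -0.25 and -0.35, and its intervals overlapped at each time.

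Mxd3, the MXD gene known for expression in cycling progenitors, could not be resolved. It maps to chr13:55325168-55329823 (minus strand), and its locus in the tables also covers Rab24 and Prelid1, whose own loci stood at 28.3 and 143 FPKM at 0 h. At 1 h Mxd3 was at 2.96 FPKM (0 to 8.10) against 3.03 (0 to 8.15). Its later values were 3.47 FPKM (0 to 8.49) after 8 h against 3.07 (0 to 8.12), and 3.46 FPKM (0 to 9.61) after 24 h against 3.08 (0 to 8.07). Its intervals reached 0, and the coefficient of variation of its counts was as high as 87.8%, against a lowest value of 9.35% in the network. A change of any moderate size would not have been detectable.

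Mnt, the most widely expressed antagonist, maps to chr11:74830920-74845725 (plus strand). At 8 h it was 10.95 FPKM (8.76 to 13.2) against 9.33 (7.39 to 11.3) at 0 h, a log2 ratio of 0.23. At 24 h it was 10.2 FPKM (7.86 to 12.5) against 9.36 (7.36 to 11.4), a log2 ratio of 0.12. Both differences were smaller than the intervals. In the 1 h table Mnt was merged with its neighbour Mettl16, another m6A methyltransferase gene, and the merged locus was at 29.5 FPKM (19.3 to 39.7) at 0 h and 31.0 (20.0 to 42.0) at 1 h. This value cannot be divided between the genes. Mettl16 alone was at 23.3 FPKM at 0 h and 31.0 at 8 h, with overlapping intervals.

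Mga encodes the largest protein of the network, which joins MAX to a variant Polycomb complex that keeps germline genes off in somatic and pluripotent cells. It maps to chr2:119897228-119969581 (plus strand). Its level was 46.4 FPKM (25.6 to 67.1) at 0 h and 39.0 (21.4 to 56.6) at 1 h. It was 58.0 FPKM (33.9 to 82.1) at 8 h against 46.7 (28.6 to 64.9), and 62.3 FPKM (35.2 to 89.3) at 24 h against 46.9 (28.5 to 65.3). Mga was below 0 h at 1 h and above it later, with log2 ratios of -0.25, 0.31 and 0.41, and its wide intervals overlapped each time. In the 1 h table its locus, 119855283 to 120043033, also covers Mapkbp1, Jmjd7 and Pla2g4b, which have no locus of their own there, so the 1 h value may hold their reads. The 8 h and 24 h loci coincide with the gene.

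Mlx encodes the partner of MLXIP and MLXIPL in the sugar-sensing branch, and maps to chr11:101087277-101092207 (plus strand). Its level was 11.1 FPKM (7.50 to 14.8) at 0 h and 11.9 (7.26 to 16.5) at 1 h. It was 11.3 FPKM (7.10 to 15.6) at 8 h against 11.3 (7.87 to 14.7), and 13.3 FPKM (8.10 to 18.5) at 24 h against 11.3 (7.86 to 14.8). Its log2 ratios of FPKM were 0.09, 0.01 and 0.23, while those of estimated counts were -0.01, -0.16 and 0.04. FPKM and counts thus gave Mlx opposite signs at 1 and 8 h, within the errors. Its locus also covers Psmc3ip on the other strand, and the strandedness of counting is not given in the sources used here.

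Compared per length at 0 h in the 8 h table, Mga and Max were the highest members, followed by Mycn, Mycl, Myc, Mlx, Mnt, Mxd4, Mxd3 and Mxd1. The intervals of neighbours overlapped in this order except between Max and Mycn, so that Mycn, Mycl and Myc could not be ordered. The first place depended on the transcript length used: estimated counts per kilobase of the longest annotated coding transcript put Max at 893 and Mga at 812 counts per kilobase, and left the other 8 in the same order. Summed over the 5 antagonists, FPKM was 69.2 ± 5.23 at 0 h and 84.2 ± 6.16 at 8 h (SD from the deposited variances), a log2 ratio of 0.28 ± 0.15 (SE), and 0.33 ± 0.16 at 24 h. At 1 h, without Mnt, the antagonists had a log2 ratio of -0.13 ± 0.19, while the MYC paralogs stood at 0.33 ± 0.13. Most of the antagonists' sum is Mga, whose 1 h locus also covers other genes, and Mxd1, Mxd3 and Mxd4 alone had 0.24 ± 0.40 at 1 h. The difference between both sums was not tested.

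The members differ in exon architecture, a feature the choice by name did not use. Junctions between exons, counted over each kilobase that codes for protein, numbered 0.722 for Mycn, 0.906 for Mycl, 1.47 for Myc, 2.41 for Mga and 2.82 for Mnt. This density lay between 7.34 and 8.33 for Mxd1, Mlx, Mxd4, Mxd3 and Max. The members thus form a sparse class of 5, with the longest internal exon at 877 bases in Mycn, 772 in Myc and 1469 in Mga, and a dense class of 5 with none over 202 bases. Junctions are bound by the exon junction complex, which is known to keep METTL3 from methylating nearby sequence, so genes with few junctions tend to carry more m6A.

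Genes tested at each time were split into 10 groups of equal size by this density, and each member was set against the median of its group. At 8 h the group medians were 0.41 for Mycn and Mycl, which had 0.45 and 0.44, and 0.34 for Mga, Mnt and Myc, which had 0.31, 0.23 and 0.14. All 5 sparse members lay within the middle 50 percent of their groups. At 24 h Myc, at -0.28, lay under the lower quartile of 0.06, with 8.39% of its group below it, while Mga, Mycl, Mycn and Mnt stayed within the quartiles. At 1 h, when the medians of these groups were -0.01 and -0.02, Myc stood above 99.2% and Mycn above 96.7% of their groups. Mycl stood above 39.2% of its group, and Mga, whose 1 h locus also covers other genes, above 13.6%. The dense member Mxd4 stood above 98.4% of its group at 1 h, and the other dense members above 36.0% to 75.2% of theirs.

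By FPKM, 4 of the 5 dense members lay above the medians of their groups at 8 and 24 h. Mlx was among them at 8 h with 0.01, but by estimated counts it had -0.16, below the FPKM median of its group, -0.12. At 8 h Mxd4, at 0.31, stood above 94.5% of a group with a median of -0.12 and Max, at 0.22, above 91.3% of one with the same median. At 24 h Mxd4 and Mlx stood above 92.6% and 90.5% of their group by FPKM, but the ratio of Mlx was 0.23 by FPKM and 0.04 by estimated counts. Mxd3, with its wide error, also lay above the median of that group at both times. Mxd1, at -0.25 and -0.35, lay below the lower quartile of its group, -0.23 at 8 h and -0.27 at 24 h. These places describe single genes, and no test was made of them.

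**Figure D3:**
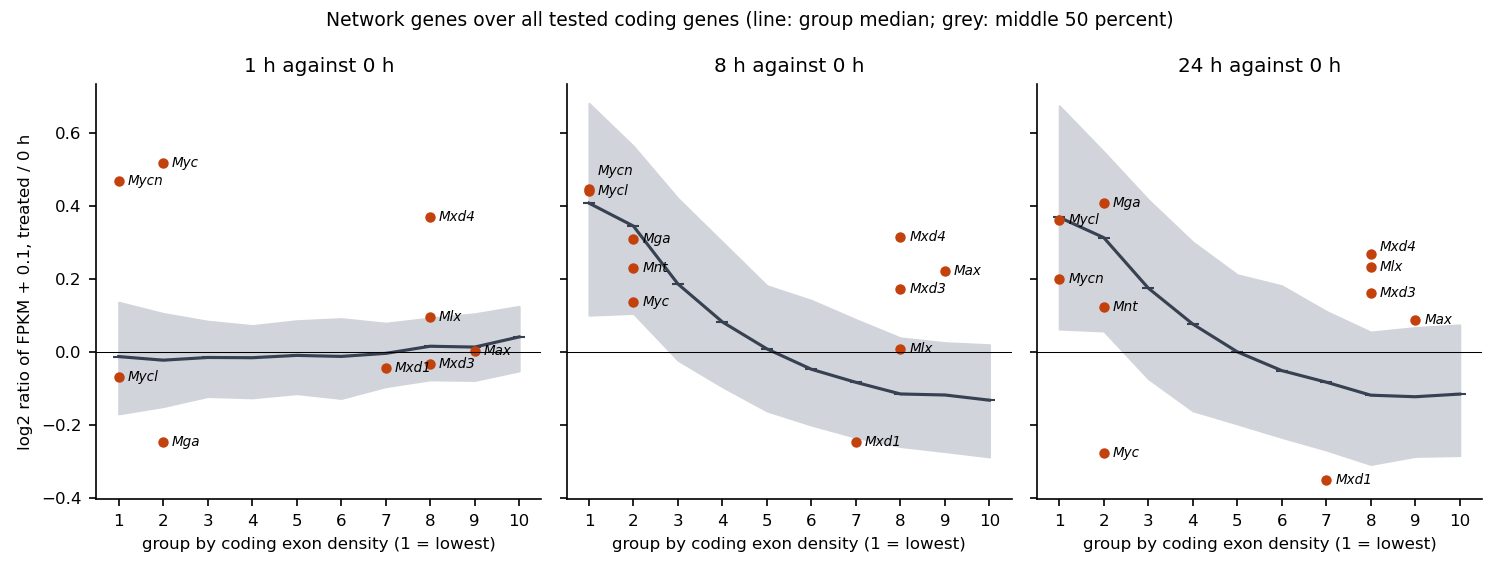
Log2 ratio of FPKM + 0.1 for the network genes (orange points) at 1, 8 and 24 h, over 10 groups of all tested coding genes ordered by coding exon density; the line joins group medians and the grey band holds the middle 50 percent of each group. At 8 h the sparse members lie in the band near medians of 0.34 to 0.41 and Mxd4, Max and Mxd3 lie above it. Mxd1 lies below the band at 8 and 24 h, and Myc at 24 h.

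Other proteins that share E-boxes or partners with the network were examined as a list of 9, of which 8 had their own locus. Its median log2 ratio was -0.08, -0.02 and 0.04 at 1, 8 and 24 h, beside 0.01, 0.01 and 0.02 over all tested loci. Bhlhe40, an E-box repressor induced by stress and hypoxia, fell to 4.18 FPKM (2.12 to 6.23) after 1 h, from 9.36 (6.76 to 11.9), and stood higher by the rule after 24 h, at 21.1 FPKM (15.8 to 26.3) beside 9.51 (7.07 to 11.9). Arntl, the clock activator BMAL1, was called lower at both later times, at 1.80 FPKM (1.28 to 2.33) beside 3.26 (2.42 to 4.09) in the 8 h table and at 1.63 (1.14 to 2.12) beside 3.27 (2.42 to 4.11) in the 24 h table. These were the only called genes of the list. At 1 h and at 8 h 1 of 8 tested was called lower, beside 0.285% and 0.94% of all tested loci. At 24 h 1 of 7 was called higher and 1 lower, beside 3.83% and 1.65%. Mxi1, the fourth MXD gene, was not called and had log2 ratios of -0.27, 0.16 and 0.15. Mlxip, the MondoA gene, was not called either, at -0.07, 0.05 and -0.20.

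Of 31 cofactors and regulators of MYC stability, 29 were tested and none was called at any time. Of all tested loci, 0.402%, 4.43% and 5.48% were called at 1, 8 and 24 h. A count of 0 in 29 is not far from these shares. The median log2 ratios of the cofactor list were 0.02, -0.01 and -0.09. The helicase and actin-like subunits that MYC recruits with histone acetyltransferases had the lowest values of the list without passing the rule: Actl6a was at -0.52 at 8 h and Ruvbl2 at -0.54 at 24 h. Bptf, a chromatin remodelling subunit needed for MYC binding, had the highest by FPKM, 0.46 at 8 h and 0.36 at 24 h. By estimated counts Bptf had 0.22 and 0.16, under Ctr9 of the same list at 0.39 and 0.23. Among 9 of 10 partners of MGA in the Polycomb complex, none was called, with list medians of 0.05, -0.03 and -0.10. With so few genes, a count of 0 is near the shares of all tested loci. By FPKM, Rybp, a RING1 partner, had the highest ratios at 8 and 24 h, 0.57 and 0.43. The lowest by FPKM were Cbx3 at -0.11 and the E2F partner Tfdp1 at -0.19. By estimated counts Rybp had 0.38 ± 0.20 at 8 h and 0.33 ± 0.20 at 24 h (SE).

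Germline genes known to be repressed through MGA and this Polycomb complex numbered 19 in the list. Of these, 16 had a locus and 12 were tested at 8 and 24 h. The list was not silent in these organoids. At 0 h in the 8 h table, 12 genes were at 1 FPKM or more, with Tdrkh at 28.5, Zcwpw1 at 10.2 and Stag3 at 5.92 FPKM. None of the 12 was called at 8 h, beside 4.43% of all tested loci, which with so few genes is near that share. At 24 h 2 of 12 were called lower, beside 1.65% of all tested loci. Both of these, and 6 of the 12 in all, reached 1 FPKM at 0 h alone, so that they could only be lower at 24 h, and at 8 h this held for 5. Dazl, a germ cell RNA-binding protein gene, fell to 0.408 FPKM (0.205 to 0.611) from 1.39 (0.966 to 1.81), and Slc25a31, a testis ADP/ATP carrier gene, fell to 0.724 FPKM (0.395 to 1.05) from 1.57 (1.06 to 2.08). The median of the tested genes was -0.37 at 8 h and -0.52 at 24 h, with 10 and 11 of 12 below 0, beside 51.3% and 52.1% of all tested loci above 0. These values rest in part on the genes that passed through 0 h alone and do not describe all 19. At 24 h the median was -0.22 over the 3 genes of at least 5 FPKM and -0.35 with a pseudocount of 1 FPKM, and at 8 h it was -0.23 with that pseudocount. Meioc, a meiosis gene, was highest at both times, at 0.12 and 0.13. Over the same interval the pluripotency markers had a median of -0.18, and 2 of them were called lower, Dppa5a and Tdgf1. The part of the pluripotency markers in the germline values was not tested.

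Genes that MYC activates were 67 in the list, of which 63 were tested at 1 h and 64 later. Their median log2 ratio was 0.07 at 1 h, with 50 of 63 above 0 and none called, beside 0.402% of all tested loci. At 8 h it was -0.09, with 23 of 64 above 0, and at 24 h -0.14, with 18 of 64 above 0. Over all tested loci the medians were 0.01, 0.01 and 0.02 at 1, 8 and 24 h, with 51.6%, 51.3% and 52.1% above 0. Coding genes of high exon density also had medians below 0, from -0.08 to -0.13 in density groups 7 to 10 at 8 h. The part of exon density in the values of this list was not tested. The called genes of the list went the other way from its median. At 8 h, 3 of 64 were called higher and none lower, and at 24 h 2 were higher and none lower, shares near those of all loci. Rrs1, a ribosome assembly gene made of 1 exon, stood at 64.3 FPKM (52.0 to 76.5) at 8 h beside 36.6 (29.5 to 43.7), and at 58.7 FPKM (47.3 to 70.0) at 24 h beside 36.7 (29.5 to 44.0). Nop2, a ribosomal RNA methyltransferase gene, stood at 72.8 FPKM (58.6 to 87.0) at 8 h beside 43.4 (34.7 to 52.1), and at 66.3 FPKM (53.5 to 79.1) at 24 h beside 43.5 (34.7 to 52.4). Polr1b, a subunit gene of RNA polymerase I, rose to 37.7 FPKM (30.1 to 45.3) at 8 h beside 21.0 (15.8 to 26.1), and its log2 ratio of 0.65 at 24 h was not called. The lowest genes of the list were Noc4l at -0.55 at 8 h and Bop1 at -0.61 at 24 h, both ribosome assembly factors, and neither was called.

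Of 14 genes that MYC represses, 13 were tested, and Cdkn1a was the only one called. It was called lower at 8 and 24 h, beside 0.94% and 1.65% of all tested loci called lower. Cdkn1a, which encodes the cell cycle inhibitor p21 and is also a p53 target, fell to 20.1 FPKM (15.6 to 24.5) at 8 h beside 48.1 (37.5 to 58.6), and to 26.4 FPKM (20.3 to 32.4) at 24 h beside 48.2 (37.5 to 58.97). The list's medians were -0.16, -0.16 and -0.15, with 2, 5 and 6 of 13 above 0. Over all tested loci the medians were 0.01, 0.01 and 0.02, with 51.6%, 51.3% and 52.1% above 0. The highest genes of the MYC-repressed list, not called, were the integrin gene Itga6 at 0.50 at 8 h and the stress gene Gadd45b at 0.49 at 24 h. Targets of MLX with MLXIP had no called gene, beside 0.402%, 4.43% and 5.48% of all tested loci. With so few genes, a count of 0 is near these shares. Of these targets, 4 were tested at 1 h and 5 later. All 4 lay below 0 at 1 h, with a median of -0.30 and Txnip, the best known of them, at 78.4 FPKM (55.6 to 101) before and 52.9 (34.7 to 71.1) after treatment. Txnip was also lowest at 8 and 24 h, at -0.33 and -0.14. Arrdc3 was highest, at 0.15 and 0.56, and the medians were -0.08 and 0.20.

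**Figure D4:**
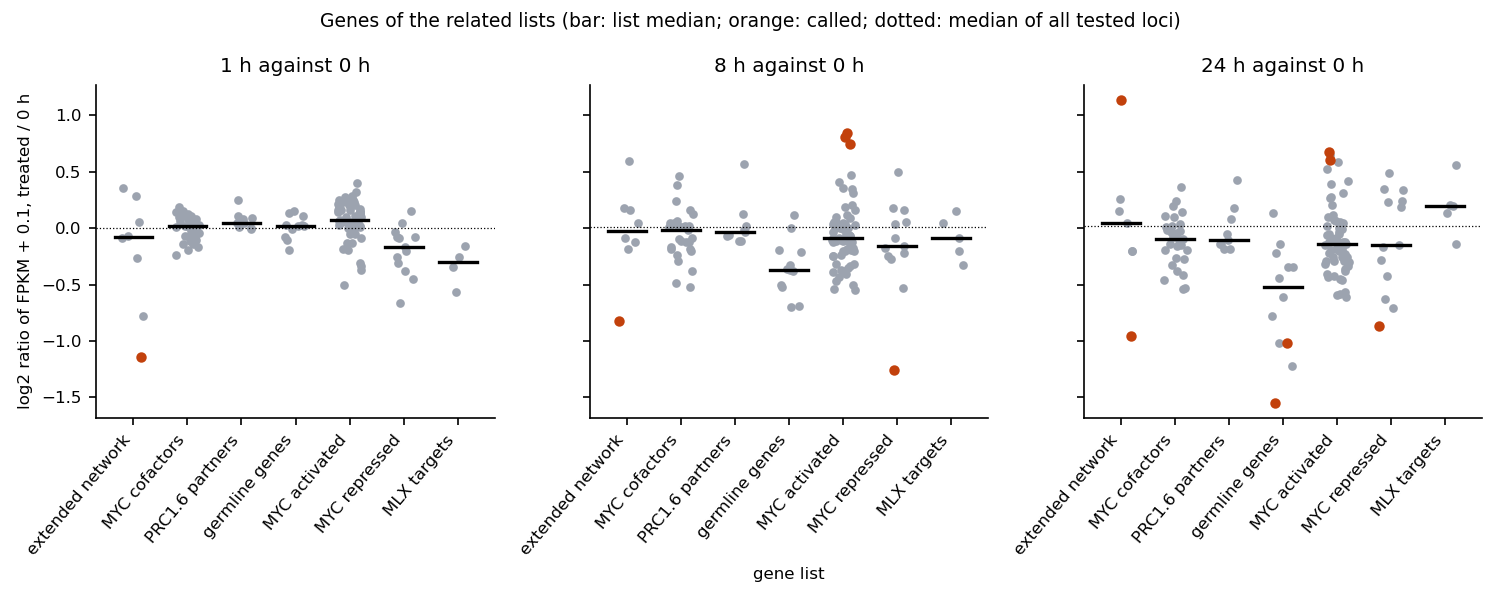
Log2 ratio of FPKM + 0.1 for each tested gene (points) of 7 lists related to the network at 1, 8 and 24 h; bars are list medians, orange points were called, and the dotted line is the median of all tested loci. The germline list has a median of -0.52 at 24 h, but 6 of its 12 tested genes reached 1 FPKM at 0 h alone and could only be lower. The 3 orange points of the MYC-activated list at 8 h lie above a list median of -0.09.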

How the data were processed

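Polyadenylated RNA of 8 samples (4 groups of 2, grouped by their titles) was sequenced. Per the submitters' processing notes, the authors used Cufflinks 2.2.1 and Cuffdiff with genome build mm10. The aligner, the annotation, the strandedness and the level of the intervals are not given in the sources used here. Per the file headers, the authors deposited FPKM with bounds, and estimated counts with variances, in 3 pairs of tables, with replicates combined into 1 column per condition. Estimated counts are scaled values and not library sizes, and no count model was fitted.

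Ratios were formed within tables on a log2 scale after 0.1 was added to each FPKM, so that folds of weakly expressed genes come out too small, using Python 3.11.15 and pandas 2.3.3. Standard errors came from the deposited count variances. They cover the authors' model of error only. Locus starts were read as counted from 0 and 1 was added. Gene positions came from GENCODE M21 (GRCm38). A representative transcript was the best by APPRIS rank, then the longest coding sequence. The calling rule was tested on simulated data, with changes placed on loci of at least 10 estimated counts, since a locus with almost no counts can carry too narrow an interval and had been called in the wrong direction. Members and lists were chosen with earlier results of these data known. The rule for named genes takes all members, every called gene of the 7 related lists and each list's highest and lowest gene. Other genes named were chosen after their values were seen. Genes of similar pattern were to be named for called members, of which there were none. The alternatives changed the pseudocount, the filter, the fold, the use of intervals, the unit and the centring.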

Additional observations from a re-analysis of the deposited data

How the results depend on the processing

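No paired analysis was possible because the columns are combined over replicates, and for the same reason no replicate could be left out. The number of members called stayed at 0 at 1, 8 and 24 h under all 8 alternatives run at each time, including the fold threshold without intervals and the intervals without a fold threshold. Given that all members lay under 1.5-fold with overlapping intervals and passed the filter, only the use of estimated counts could have added a call. Over all tested loci the fold threshold alone gave 707, 1896 and 2371 calls at 1, 8 and 24 h in place of 55, 612 and 762, and a 2-fold threshold gave 39, 217 and 297. At 1 h, no filter gave 95 calls and a minimum of 5 FPKM gave 30. Estimated counts gave 38 calls at 1 h, 4 of them higher, against 16 higher of 55 by FPKM. The members' log2 ratios moved by less than their standard error under all 87 alternatives run. Their sign changed in 4, for Max at 1 h and Mlx at 1 and 8 h, with values between -0.16 and 0.00. List medians moved by less than the median standard error of their genes in all 84, and 4 changed sign, the farthest to -0.08. The germline median nevertheless moved by over 1.5 times, from -0.52 to -0.22 at 24 h with a minimum of 5 FPKM and from -0.37 to -0.23 at 8 h with a pseudocount of 1 FPKM. The difference of Myc at 24 h from 1 h, -0.79 on the log2 scale, does not pass a 2-fold threshold, and it lay between -0.84 and -0.75 under the other 4 alternatives, each past the 1.5-fold rule. These 5 alternatives were chosen after seeing the data. The deposited errors limit what could be detected, most of all for Mxd3, whose counts had a coefficient of variation of up to 87.8%. Mlx followed at up to 17.2% and Mxd1 at up to 13.7%, and the FPKM intervals of Mga were wide as well.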
